A study of Mus musculus with 20 samples.

Results

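In Treg cells of mesenteric lymph nodes (mLN), 130 of the 16784 genes in the count table were close to silent in WT mice and had reads in every DKO library. A gene was taken when each of the 3 WT Treg libraries held at most 3 raw counts and each of the 3 DKO Treg libraries held at least 10, a raw count being the number of reads assigned to the gene. This pattern was met by 132 genes (0.786% of those tested), and Cdkn2a and Sh2d1b1 were set aside, which leaves the 130 described here. The opposite pattern, at least 10 counts in each WT and at most 3 in each DKO Treg library, was met by 7 genes. Since the mLN Treg counts chose the genes, their levels in those 6 libraries are a description and were not tested, while the CD4+Foxp3- cells of mLN and all libraries of spleen and peripheral lymph nodes (pLNs) took no part in the choice. Of the 130 genes, 127 could be found in the separate table of spleen and pLNs, 117 under the same symbol and 10 under an older one.

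The libraries came from C57BL/6 mice aged 14 weeks. Mice labelled Tet2/3 DKO carried floxed alleles of Tet2 and Tet3 together with Foxp3Cre, and per the study's methods the WT mice carried Foxp3Cre too. The Cre is a fusion with YFP inserted behind the coding part of Foxp3, so recombination is driven where Foxp3 is expressed. CD4+Foxp3- cells were sorted as cells without YFP, outside the population in which Cre is driven at the time of the sort. They cannot be taken as free of recombination. The study states that Tet2 and Tet3 mRNA was not deleted in CD4+YFP- cells, but later reports it as greatly reduced there in DKO mice. From this and fate mapping it proposes that many activated CD4+YFP- cells had once been Treg cells. In mLN each of the 4 groups (WT Treg, DKO Treg, WT CD4+Foxp3- and DKO CD4+Foxp3-) has 3 libraries, and in pooled spleen and pLNs each has 2. The labels number the replicates without naming an animal, and p-values measure the spread between these samples. Per the study, DKO cells of both types from spleen and pLNs came from 2 littermates. These differed in the severity of their splenomegaly, and which replicate number is which was not given in the sources used here.

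TET enzymes oxidise 5-methylcytosine in DNA, mostly at CpG dinucleotides, and thereby open a path to loss of methylation at promoters and enhancers. Treg cells are CD4+ T cells that restrain immune responses and are defined by the transcription factor Foxp3, and regulatory elements of Foxp3 are known to need TET activity to stay unmethylated. Genes that a lineage does not use are usually held silent by DNA methylation, by repressive histone marks or by the lack of activating factors. Neither methylation nor chromatin is part of these tables.

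Promoter sequences are shown for 4 of the genes because they differ widely in CpG content and belong to genes whose levels are given in what follows: a serotonin receptor gene (Htr7), a collagen gene (Col5a3), a granin gene (Scg2) and a lectin-like receptor gene of NK cells (Klrb1a). They are the 250 bases before the start of each gene from RefSeq, build GRCm38.p6, on the minus strand of the chromosome and read 5′ to 3′ along the gene, with each CG dinucleotide in capitals. A CG is its own reverse complement, so both strands hold the same number.
Scg2, chr1:79440027-79440276: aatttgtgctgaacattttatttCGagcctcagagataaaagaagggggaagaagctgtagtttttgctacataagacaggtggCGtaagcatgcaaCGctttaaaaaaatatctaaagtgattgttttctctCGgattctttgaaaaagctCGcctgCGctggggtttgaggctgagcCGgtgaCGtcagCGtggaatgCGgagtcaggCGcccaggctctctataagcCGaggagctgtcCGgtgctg
Htr7, chr19:36057361-36057610: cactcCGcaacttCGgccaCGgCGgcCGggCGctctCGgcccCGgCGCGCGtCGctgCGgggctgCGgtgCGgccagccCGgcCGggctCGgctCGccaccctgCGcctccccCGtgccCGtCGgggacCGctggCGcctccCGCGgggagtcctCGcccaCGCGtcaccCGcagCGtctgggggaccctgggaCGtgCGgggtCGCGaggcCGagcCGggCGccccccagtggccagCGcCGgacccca
Col5a3, chr9:20815068-20815317: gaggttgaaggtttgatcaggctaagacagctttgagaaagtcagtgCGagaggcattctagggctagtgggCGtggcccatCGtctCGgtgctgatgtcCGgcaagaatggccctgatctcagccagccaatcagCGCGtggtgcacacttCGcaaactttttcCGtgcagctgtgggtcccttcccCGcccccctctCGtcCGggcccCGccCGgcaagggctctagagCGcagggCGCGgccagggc
Klrb1a, chr6:128622935-128623184: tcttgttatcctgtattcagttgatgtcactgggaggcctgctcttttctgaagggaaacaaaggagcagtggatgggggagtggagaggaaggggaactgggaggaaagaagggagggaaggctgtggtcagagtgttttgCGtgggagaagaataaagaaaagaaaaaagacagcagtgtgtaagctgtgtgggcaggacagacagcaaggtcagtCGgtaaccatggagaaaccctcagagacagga
The Htr7 window held 41 CG dinucleotides, a number that 1.09% of the 32851 windows of the same length in the table reached. The Col5a3 window held 17 (reached by 23.5%) and the Scg2 window 13 (reached by 31.5%), while the Klrb1a window held 2, which 81.2% of windows reached. The median window held 6, and 92.1% of windows held at least 1. The table has a promoter for 94 of the 130 genes (72.3%), fewer than the 80% set as the minimum for a statement on the whole set, so the CpG content of the set was not summarised.

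Counted reads ranged from 9998478 to 15449158 per library. After TMM scaling, 3 counts in a library, taken as the limit below which a gene cannot be told from silent, correspond to between 0.172 and 0.299 CPM (counts per 1e+06 counted reads), a limit that covers counting error only. Foxp3 was between 152 and 419 CPM in all 10 Treg libraries and between 0.211 and 2.75 CPM in all 10 CD4+Foxp3- libraries, so the sorted populations matched their labels by this gene. Tet2 was at 10.3 to 10.8 CPM in WT and 7.69 to 12.8 CPM in DKO Treg cells of mLN, and Tet3 at 69.0 to 86.5 CPM and 48.4 to 73.3 CPM. In Treg cells of spleen and pLNs, Tet2 was at 2.08 and 1.11 CPM in WT, against 8.01 and 2.05 CPM in DKO. Tet3 was there at 31.0 and 30.6 CPM in WT, against 61.0 and 38.1 CPM in DKO. These values sum all exons, deleted or not, and do not check the genotype. DKO libraries stood apart from each other in the summed level of the 130 genes: in CD4+Foxp3- cells of spleen and pLNs the sum over 127 genes was 976 CPM for DKO replicate 1 against 153 CPM for replicate 2, and in CD4+Foxp3- cells of mLN it was 104, 520 and 381 CPM in replicates 1 to 3. The number of genes called in each comparison is also given with single libraries left out. In Treg cells of spleen and pLNs, the NK cell list of 7 genes summed to 10.6 to 11.2 CPM in WT and 97.2 to 136.5 CPM in DKO, the 16 monocyte and macrophage genes to 188 to 193 CPM and 308 to 401 CPM, the 4 plasma cell genes to 6.61 to 8.22 CPM and 19.3 to 93.2 CPM, and the 10 neutrophil genes to 1.31 to 2.02 CPM and 2.73 to 9.33 CPM, while the 9 stroma genes did not pass 1.89 CPM in any of these libraries. The dendritic cell (3.48 to 4.46 CPM in WT, against 4.64 to 8.76 CPM), endothelium (0.209 to 0.615 CPM, against 1.84 to 3.66 CPM), epithelium (16.6 to 18.8 CPM, against 21.8 to 27.5 CPM) and Tfh lists (584 to 692 CPM, against 706 to 1010.0 CPM) were also above WT without overlap. The CD8 T cell list was lower (17.2 to 19.7 CPM, against 6.70 to 9.42 CPM), as were the germinal centre B cell, Treg lineage, Th1, Th2 and Th17 lists, and the other 6 of 20 overlapped. The part of these lists in the results was not tested. In such sorted bulk samples, more cells that use a gene and more RNA per cell cannot be told apart.

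**Figure D1:**
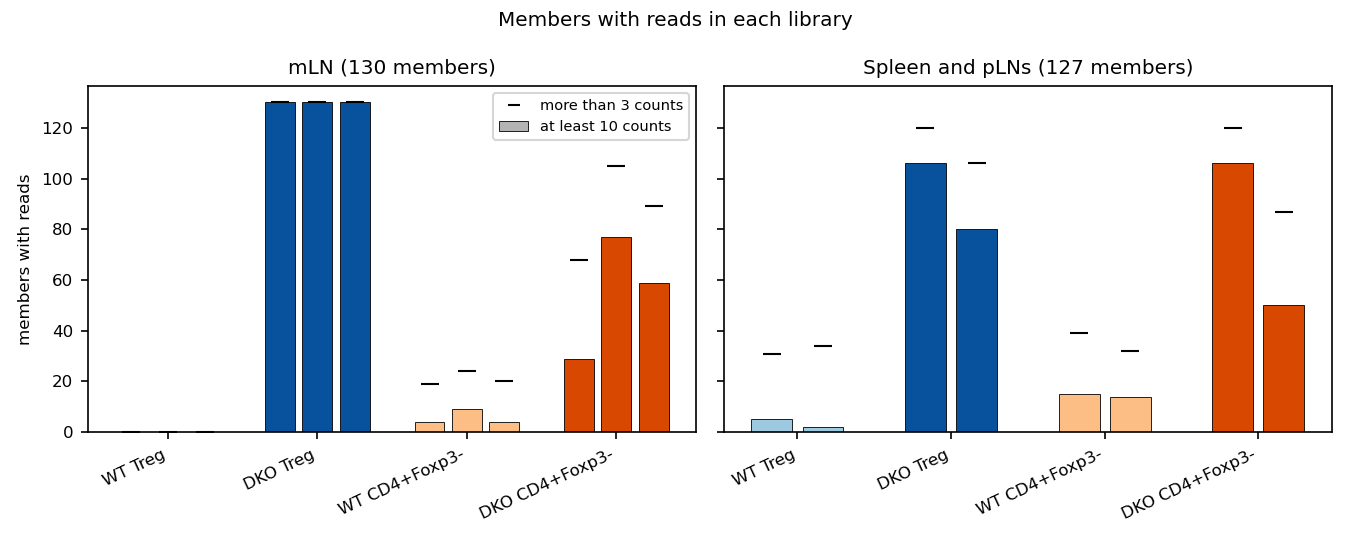
Number of the genes with reads in each library, on the y axis, by group and replicate on the x axis, for mLN (130 genes) and for spleen and pLNs (127 genes). Bars count genes with at least 10 reads and short lines genes with more than 3. The 3 bars at 130 and the 3 empty places in mLN Treg cells follow from how the genes were chosen, and the other bars do not.

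In mLN Treg cells, where the genes were chosen, their summed level was 11.0, 10.2 and 11.9 CPM in WT, against 1089, 582 and 891 CPM in DKO. Most were below the median of all genes in DKO cells too. Per length, as TPM averaged over the 3 DKO libraries, they ranged from 0.267 to 41.8. Their median was 2.21, against a median of 7.79 over all 16784 genes of the table. A mean of 10 TPM was reached by 14 genes (10.8%, against 46.7% of all genes), and 1 TPM by 100 (76.9%, against 67.25% of all genes). The level was uneven among them, as the 10 highest held 55.1%, 37.7% and 51.8% of the summed CPM in DKO replicates 1 to 3. Of the 130, 126 have coordinates in GENCODE M1 on NCBIM37, on 20 chromosomes, with at most 12 on any chromosome, and 124 are annotated as protein coding. Fads2 and Fads3 on chromosome 19, a pair of fatty acid desaturase genes, and Spint1, a serine protease inhibitor gene, and Rhov on chromosome 2 are neighbours in the annotation, and no other pair is.

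The thresholds divide a continuum. Lrrc73, Wdr54 and Ceacam1 lay at both limits, with a highest WT count of 3 and a lowest DKO count of 10. Just outside were 47 genes that missed by 1 count, headed by Cobl (4, 4 and 2 counts in WT, 635, 342 and 127 in DKO), B3galt1 (4, 0 and 0 against 267, 143 and 67), Ccl4 (2, 4 and 3 against 83, 45 and 217) and Spp1 (2, 4 and 3 against 78, 62 and 159). With at most 0 counts allowed in WT, 27 of the genes remained, and with at least 20 counts asked in DKO, 61.

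By CPM, which does not allow for the length of a gene, Fbn2, Sdc2, Spon1 and Sulf2 had the highest means, with Col5a3 in place 5 and Frem2 in place 9. By TPM, Fbn2 was in place 8, Col5a3 in place 9 and Frem2 in place 56, and Klrb1a, Ccl3 and Kcnk1 were in places 1, 3 and 4. Fbn2, which encodes the microfibril protein fibrillin-2, held 0.164, 0.165 and 0 CPM in WT Treg cells of mLN and 102.5, 40.8 and 69.3 CPM in the DKO ones. Sdc2, the heparan sulfate proteoglycan syndecan-2, went from 0.0822, 0.248 and 0.0984 CPM to 125, 30.8 and 33.4 CPM. Spon1, the matrix protein F-spondin, was without a read in WT, against 59.7, 51.0 and 53.2 CPM in DKO. The 3 DKO libraries lay close together for Spon1, whereas for Sdc2 replicate 1 was far above the other two. Sulf2, a sulfatase that edits heparan sulfate outside the cell, was at 97.8, 9.06 and 46.1 CPM in DKO. Col5a3, a chain of type V collagen whose promoter is shown above, was at 64.3, 14.5 and 43.5 CPM, and Frem2, a basement membrane protein, at 5.50, 16.3 and 29.9 CPM. For Sulf2 and Col5a3 replicate 2 was the lowest, and for Frem2 the highest value was in replicate 3.

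The other 6 of the 12 highest by CPM were of varied kinds. Kcnk1, a potassium channel gene, was at 46.8, 2.23 and 63.7 CPM in DKO Treg cells, and Vwde, which encodes a protein with von Willebrand factor D and EGF domains, at 8.02, 11.4 and 60.0 CPM. Klrb1a was at 39.9, 20.9 and 16.0 CPM, and per length it was the highest of the set, with a mean of 41.8 TPM. Ntng1 (netrin G1, a membrane-anchored guidance protein of neurons) was at 12.4, 4.96 and 29.7 CPM, Olfm1 (a secreted glycoprotein of neurons) at 23.8, 10.3 and 9.56 CPM, and Spry2 (an inhibitor of receptor tyrosine kinase signalling) at 19.3, 9.92 and 12.1 CPM. Kcnk1 thus varied most among these, with replicate 2 far below the rest, and none of the 12 reached 0.3 CPM in a WT Treg library of mLN.

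**Figure D2:**
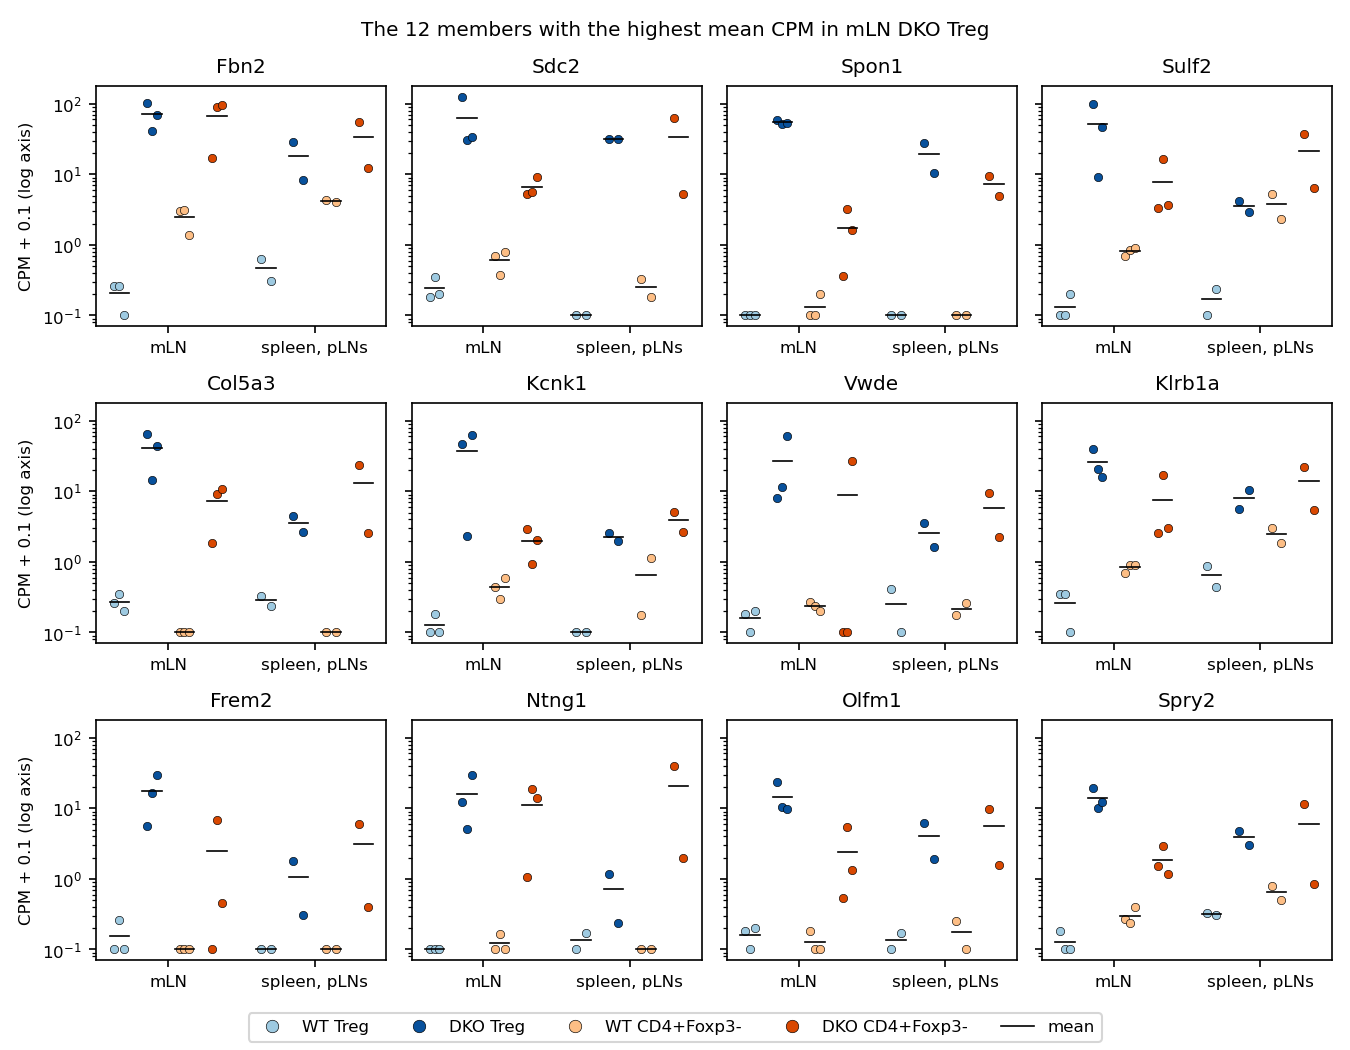
Levels of the 12 genes with the highest mean CPM in mLN DKO Treg cells, in all 20 libraries. The y axis is CPM + 0.1 on a log axis, each point is a library, short lines are group means, and colours give genotype and cell type. In mLN Treg cells the WT and DKO points are separated by construction, and in the other groups they were free to overlap, as they do for Vwde and Frem2 in CD4+Foxp3- cells of mLN.

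Families were set up from patterns of gene symbols, which miss genes of like function, so they give shares of symbols matched and no full count. Symbols of matrix proteins and matrix proteases were matched by 6 of the 130 genes (4.62%), against 0.769% of all genes in the table: Fbn2, Sdc2, Spon1 and Col5a3, with Mmp10 and Emilin2 at mean levels of 4.20 and 2.22 CPM. Frem2, Lum and Lox, which also encode proteins of the matrix or enzymes acting on it, were not matched. Another 6 (4.62%, against 1.09%) matched ion channels, with Kcnk1, Kcnh5, Scn8a and Cacna1e the highest. Symbols of G protein-coupled receptors were matched by 3 (2.31%, against 1.24%), the serotonin receptor gene Htr7, the lysophosphatidic acid receptor gene Lpar3 and the Wnt receptor gene Fzd4, and not by Adgrg5, which is one too. Transcription factors of developmental families were matched by 5 (3.85%, against 1.38%), namely Twist2, Etv4, Cebpd, Foxp2 and Snai2. Of the 6 matched matrix genes, 3 were called higher in Treg cells of spleen and pLNs, 5 in CD4+Foxp3- cells of mLN and 4 in CD4+Foxp3- cells of spleen and pLNs, by the tests given with each comparison, in which 1.14%, 3.12% and 0.770% of all genes and 20.5%, 39.2% and 11.8% of the whole set were called higher. For the 6 ion channel genes these numbers were 1, 2 and 0, for the 3 matched receptor genes 1, 2 and 1 and for the 5 transcription factor genes 0, 2 and 1. Axon guidance is represented by Ntng1 and Dpysl3, and histones by H1fx and H2afy2. Cadherins, TNF family genes, growth factors and immunoglobulin or T cell receptor genes have no member. The families cover few of the genes, since 89 of the 130 fall in none of them and in no cell type list.

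The CD4+Foxp3- cells of mLN asked whether the same genes are also up in DKO cells that do not express Foxp3. In WT CD4+Foxp3- cells, 100 of the 130 had at most 3 counts in each library, and 12 had more than 3 in each. In DKO CD4+Foxp3- cells, 54 had more than 3 counts in each of the 3 libraries and 23 had at least 10 in each, and 13 stayed at or under 3. The quasi-likelihood test of edgeR, fitted over all 16784 genes and with calls made where the adjusted p did not exceed 0.05 and the change reached 1.5-fold, called 51 of the 130 higher in DKO (39.2%, where 3.12% of all genes were called higher) and 0 lower, with 93 at an unadjusted p under 0.05 (71.5%, against 18.7% of all genes). DKO values lay above all WT values without overlap for 75 of the 130 (57.7%, against 11.1% of all genes). The pattern used in Treg cells, at most 3 against at least 10 counts, was met by 11 of them (8.46%, against 0.185% of all genes). The fitted log2 fold change was positive for 125 and had a median of 3.98, or 2.33 with the 37 genes without a WT read set to the bound that 3 counts allow, and the median of all genes was 0.

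Fbn2 had the lowest adjusted p. It was at 2.89, 3.04 and 1.30 CPM in WT CD4+Foxp3- cells, more than in WT Treg cells, and at 16.8, 91.1 and 96.3 CPM in DKO, a log2 difference of 4.78 (SE 0.62, adjusted p = 0.00386). Scg2, which encodes the neuroendocrine granin secretogranin II, was at 0.426, 0.338 and 0.0997 CPM in WT, against 7.45, 13.4 and 55.5 CPM in DKO (log2 difference 6.36, SE 0.85, adjusted p = 0.00387). In both genes all 3 DKO libraries lay above all WT libraries, and the DKO values differed several-fold among themselves. Spint1, at 0, 0 and 0.0997 CPM in WT, against 0.532, 6.12 and 5.92 CPM in DKO, and its neighbour Rhov were both called (adjusted p = 0.00668 and 0.0240).

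Some genes without a read in WT CD4+Foxp3- cells of mLN were called as well. P3h2, a prolyl hydroxylase that modifies collagen, was at 2.31, 26.9 and 7.51 CPM in DKO, at least 41.0-fold above the limit. Col5a3 was at 1.77, 8.94 and 10.9 CPM (at least 24.0-fold), Htr7 at 1.06, 14.3 and 2.03 CPM (at least 19.4-fold), and Twist2, a basic helix-loop-helix factor of mesenchyme, at 0.710, 9.01 and 1.86 CPM (at least 12.9-fold). Replicate 2 was the highest for P3h2, Htr7 and Twist2 and replicate 1 the lowest for all 4. Fads2 (log2 difference 4.48, SE 0.73), Prss30 (5.56, SE 0.89), Spry2 (3.15, SE 0.56), Ncald, a neuronal calcium sensor gene (3.70, SE 0.67), and Wdr93 (4.93, SE 0.91) had adjusted p values between 0.00822 and 0.0129. The provisional genes 4933402N22Rik, Gm6455 and Gm5861, which lie between 10866072 and 11922821 on chromosome 5 of NCBIM37, were called too, as was Gm15987 on chromosome 6. The values of the 3 chromosome 5 genes are uncertain because reads could be shared with like copies.

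In DKO CD4+Foxp3- cells of mLN the stroma list of 11 genes summed to 1.42 to 9.15 CPM (0.596 to 0.898 CPM in WT), the monocyte and macrophage list to 85.9 to 293 CPM (33.3 to 42.1 CPM in WT) and the plasma cell list to 13.5 to 547.5 CPM (3.98 to 10.7 CPM in WT). Of the monocyte and macrophage genes, Lyz2 did not pass 0.887 CPM and Csf1r did not pass 0.141 CPM in these DKO libraries. Of the 20 marker lists, 9 were above WT without overlap in these cells, 3 were below (dendritic cells, neutrophils and CD8 T cells) and 8 overlapped, T cell identity, Th1 and Th2 among them. Among the 9, the Treg lineage list of 9 genes summed to 496 to 1428 CPM (418 to 482.5 CPM in WT), the Tfh list of 9 to 342 to 1056 CPM (261 to 324 CPM in WT), the Th17 list of 7 to 52.6 to 72.9 CPM (32.3 to 40 CPM in WT), the cytotoxicity list of 9 to 518 to 849.7 CPM (424 to 442 CPM in WT) and the NK cell list of 7 to 59.9 to 144 CPM (34.0 to 43.6 CPM in WT). Of the Treg lineage genes 3 and of the Tfh genes 4 were called higher. The CD8 T cell list of 2 genes summed to 4.996 to 10.1 CPM (21.5 to 23.3 CPM in WT). The B cell list of 12 summed to 10.2 to 29.0 CPM (5.78 to 7.09 CPM in WT). The part of these lists in the results was not tested. The number called in these cells moved with the libraries. Without DKO replicate 1 it was 73 (56.2%, where 7.18% of all genes were called higher), and without DKO replicate 2 or 3 it was 41 or 49 (2.22% and 3.01% of all genes). Without WT replicate 1, 2 or 3 it fell to 6, 3 or 8, when 0.359%, 0.317% and 0.616% of all genes were called higher. With only the 2 groups compared in the fit it was 0, where 0.00633% of all genes were called higher. The fitted fold change stayed positive for 117 to 127 of the 130 genes over these fits. Replicate 2 held the highest of the 3 DKO values for 63.2% of the 117 genes above 3 counts in any of them, against 40.1% of all genes with reads. Fbn2, Scg2, Spint1, Rhov, P3h2, Col5a3, Htr7 and Twist2 kept their calls when each DKO library was left out in turn, while no called gene kept its call in every alternative fit.

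**Figure D3:**
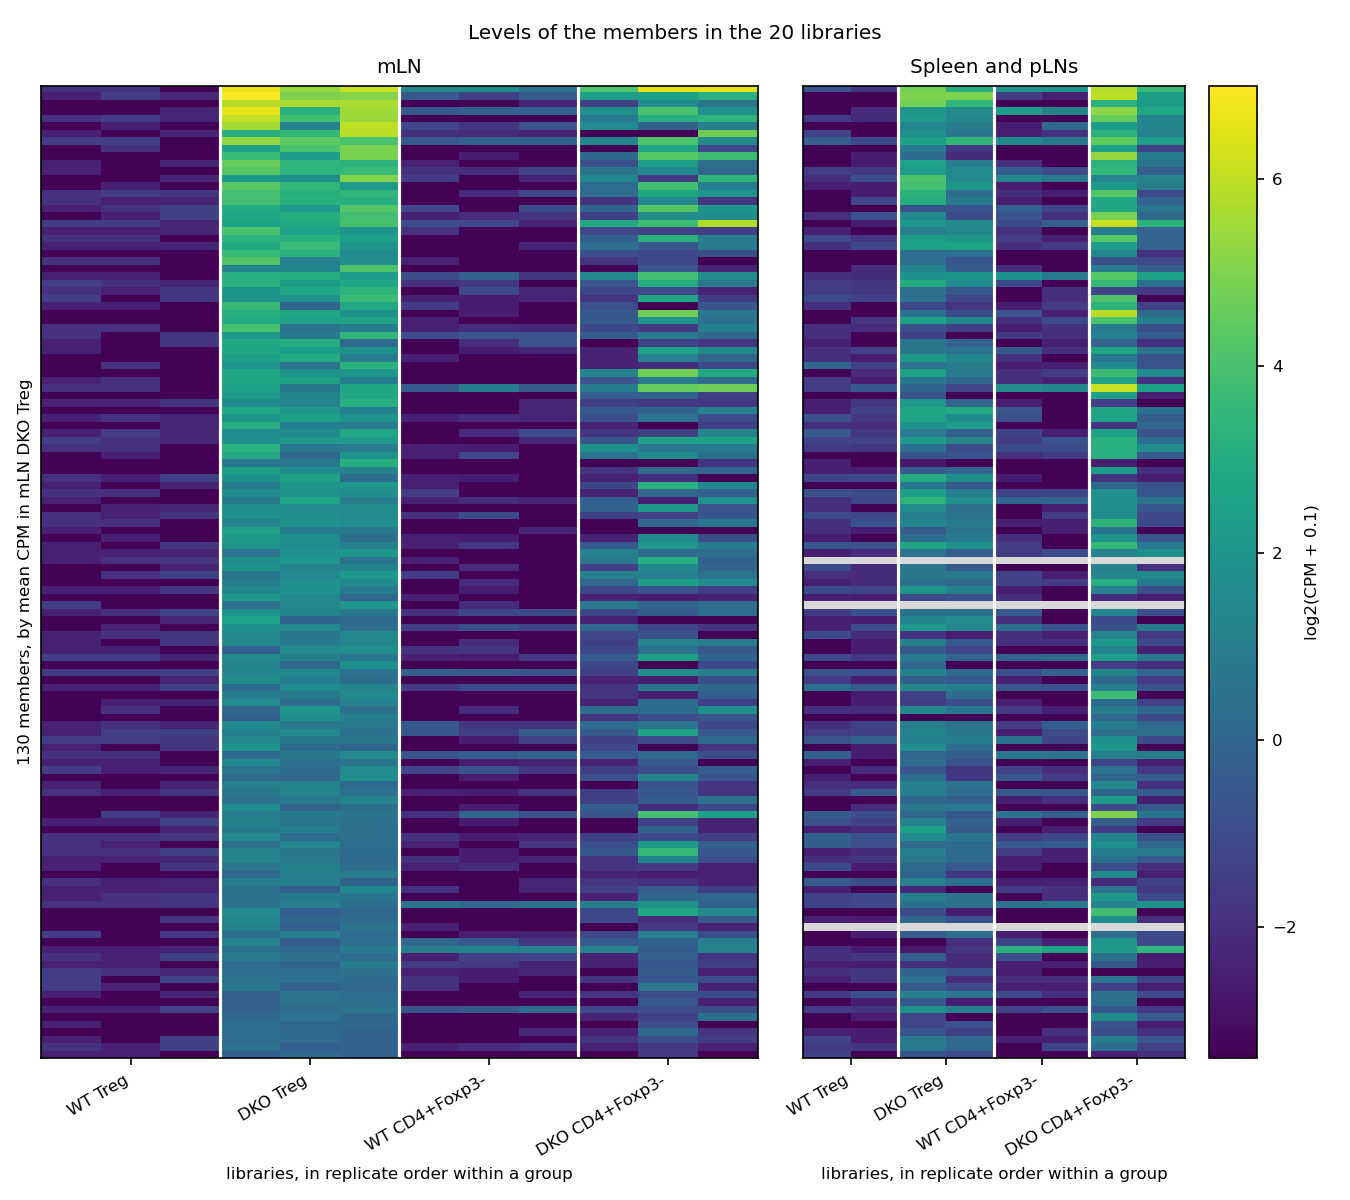
Heat map of the 130 genes (rows, by falling mean CPM in mLN DKO Treg cells) in the 12 mLN libraries and the 8 libraries of spleen and pLNs (columns, in replicate order within a group), coloured by log2(CPM + 0.1). Grey rows are the 3 genes not found in the table of spleen and pLNs. WT columns are mostly dark in both tissues, with exceptions in CD4+Foxp3- cells such as Adgrg5 and Fbn2, and DKO CD4+Foxp3- cells are brightest in mLN replicate 2 and in spleen and pLN replicate 1.

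Treg cells of spleen and pLNs asked whether the difference between WT and DKO is found in another tissue and in other libraries. In WT, 81 of the 127 genes had at most 3 counts in both libraries and 19 had more than 3 in both. In DKO, 106 had more than 3 in both and 79 at least 10 in both, and 7 stayed at or under 3. The test called 26 of the 127 higher (20.5%, where 1.14% of all 16357 genes were called higher) and 0 lower, and 86 had an unadjusted p under 0.05 (67.7%, against 20.4% of all genes). Both DKO values lay above both WT values for 109 genes (85.8%, against 28.1% of all genes), and below them for 0. The fold change was positive for 124 of the 127, with a median of 3.47 on the log2 scale, or 2.84 with the 19 genes without a WT read at their bound, against 0.02 over all genes. The pattern of at most 3 against at least 10 counts was met here by 41 of the 127 (32.3%, against 0.703% of all genes). With the same genes set aside, 114 genes met it in this table, so the 41 were 36.0% of that list and 32.3% of the genes compared.

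Spon1 and Sdc2 had no reads in either WT library. Spon1 was at 28.0 and 10.4 CPM in DKO Treg cells of spleen and pLNs, at least 83.3-fold above the limit (adjusted p = 0.00129), and Sdc2 at 31.5 CPM in both (at least 136.5-fold, adjusted p = 0.0100). Htr7 rose from 0.0769 and 0.0696 CPM to 14.7 and 4.23 CPM (log2 difference 6.86, SE 0.90, adjusted p = 0.00361). Fbn2 rose from 0.538 and 0.209 CPM to 28.3 and 8.33 CPM (5.61, SE 0.88, adjusted p = 0.0109). For Spon1, Htr7 and Fbn2 replicate 1 was the higher of the DKO libraries, and both were above WT in all 4 genes.

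Signalling and adhesion genes were among the other calls. Ccl3, a chemokine gene of activated T cells and myeloid cells, was at 0.154 and 0.418 CPM in WT, against 16.7 and 2.80 CPM in DKO (log2 difference 5.04, SE 0.83, adjusted p = 0.0131). Madcam1, an addressin best known from vessels of gut-associated tissue, was at 0.307 and 0.348 CPM in WT, against 7.96 and 3.35 CPM in DKO (4.07, SE 0.68, adjusted p = 0.0137). Thsd7a, a membrane protein with thrombospondin domains, was at 0.154 and 0.139 CPM in WT, against 3.66 and 5.05 CPM in DKO (4.82, SE 0.82, adjusted p = 0.0184). Klrb1a rose from 0.769 and 0.348 CPM to 5.55 and 10.4 CPM (3.83, SE 0.70, adjusted p = 0.0221). Thsd7a and Klrb1a were higher in replicate 2 of DKO and Ccl3 and Madcam1 in replicate 1, and no DKO value fell within the WT range.

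Dclk1, a microtubule-associated kinase (log2 difference 4.69, SE 0.72), Ncald (4.70, SE 0.74), Wdr93 (4.49, SE 0.80), Msc, a basic helix-loop-helix repressor (5.74, SE 1.05), Syt7, a synaptotagmin of vesicle release (4.89, SE 0.90), and Tpbg, a membrane glycoprotein (5.24, SE 0.9985), had adjusted p values from 0.00986 to 0.0259. Kcnk1, without a read in WT, was at 2.46 and 1.91 CPM in DKO, at least 9.48-fold above the limit (adjusted p = 0.0274). That was far below the 46.8 and 63.7 CPM of 2 of the mLN DKO Treg libraries and near the 2.23 CPM of the third, though the tables were scaled separately.

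Some of the genes not called in Treg cells of spleen and pLNs had hardly any reads there. Stc1, which encodes the secreted glycoprotein stanniocalcin 1, was at 1.53, 1.65 and 8.81 CPM in mLN DKO Treg cells and was the only gene of the set with at most 3 counts in each of the 8 libraries of spleen and pLNs, where its highest count was 1. Lum had no reads in any Treg library of spleen and pLNs. Pcbd1 was at 0.384 and 0.139 CPM in WT, against 0.172 and 0.0683 CPM in DKO. Adgrg5 was not detectably different, at 0.154 and 0.0696 CPM in WT, against 0.0572 and 0.205 CPM in DKO, all at or under the limit.

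With 2 libraries per group, the calls in Treg cells of spleen and pLNs depended on each library. Leaving out DKO replicate 2 gave 36 calls (28.3%, where 6.92% of all genes were called higher, against 1.14% with all libraries). With edgeR's stricter count filter (filterByExpr) and all libraries there were 0 calls, where 0.111% of all genes were called higher. Leaving out DKO CD4+Foxp3- replicate 1, which shares the fit, raised the number, both in the set and over all genes. The calls were lost when DKO replicate 1, WT replicate 1 or WT replicate 2 was left out, in fits that called hardly any gene of the table. The fold change was positive for 116 of the 127 genes without DKO replicate 1, with a median of 2.95, and for 121 to 124 in the other fits of this kind. Each of the 26 calls was lost in some alternative fit, with adjusted p values for Spon1 of up to 0.0833 and for Htr7 of up to 0.192.

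**Figure D4:**
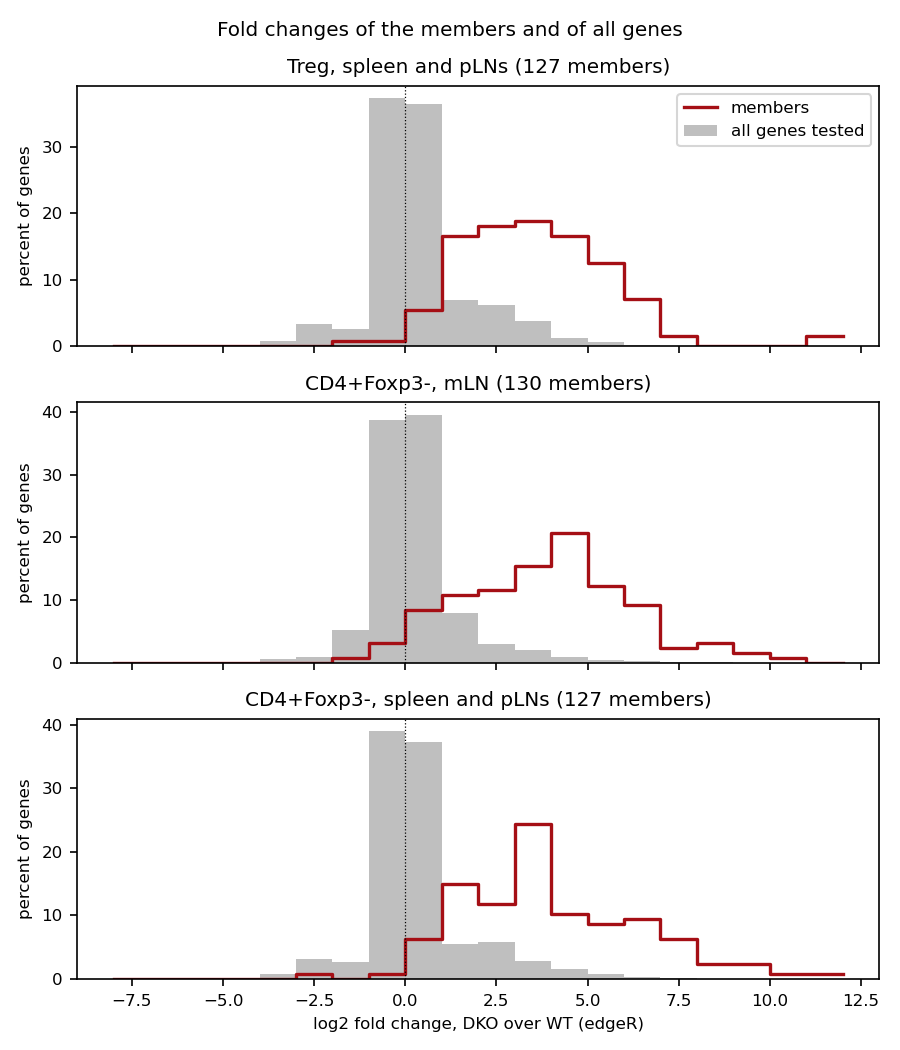
Histograms of log2 fold changes (x axis, DKO over WT, bins 1 unit wide) as percent of genes (y axis), for Treg cells of spleen and pLNs and for CD4+Foxp3- cells of mLN and of spleen and pLNs. Red outlines are the selected genes and grey bars all genes tested. The medians of the selected genes are 3.47, 3.98 and 3.83, with 124 of 127, 125 of 130 and 125 of 127 above 0.

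In CD4+Foxp3- cells of spleen and pLNs, 80 of the 127 genes had at most 3 counts in both WT libraries and 24 had more than 3 in both, while in DKO cells 85 had more than 3 in both and 48 at least 10 in both. The test called 15 higher (11.8%, where 0.770% of all genes were called higher) and 0 lower, and 93 had an unadjusted p under 0.05 (73.2%, against 12.9% of all genes). Both DKO values lay above both WT values for 97 genes (76.4%, against 20.8% of all genes), and 16 met the pattern of at most 3 against at least 10 counts (12.6%, against 0.361% of all genes). The median log2 fold change was 3.83, or 3.13 with the 27 genes without a WT read at their bound, against 0 over all genes.

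Spon1, without a read in WT, was at 9.48 and 4.82 CPM in DKO, at least 29.6-fold above the limit (adjusted p = 0.0106). Scg2 went from 0.380 and 0.804 CPM to 72.3 and 9.86 CPM (log2 difference 6.11, SE 0.85, adjusted p = 0.0112). Col5a3, also without a read in WT, was at 23.4 and 2.44 CPM in DKO (at least 53.5-fold, adjusted p = 0.0173). In each of these genes both DKO libraries were above WT, and replicate 1 was the higher. Sdc2 was at 0.228 and 0.0804 CPM in WT, against 62.5 and 5.19 CPM in DKO (7.69, SE 1.20, adjusted p = 0.0217). Htr7 (6.12, SE 1.01), the matrix metalloproteinase gene Mmp10 (3.86, SE 0.68), P3h2 (5.29, SE 0.94) and Tmem45a (5.73, SE 1.05) completed the 8 with the lowest adjusted p, between 0.0106 and 0.0318. Without DKO replicate 1, Spon1, Scg2, Col5a3 and Sdc2 were still called (log2 difference 4.04 for Scg2 and 4.97 for Sdc2), and Htr7 (adjusted p = 0.0537), P3h2 (0.0644), Tmem45a (0.0780) and Mmp10 (0.103) were not. Dpysl3, a neuronal regulator of the cytoskeleton, was at 60.6 CPM in DKO replicate 1 against 1.19 CPM in the other, and was not called (adjusted p = 0.0786).

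Replicate 1 held the higher DKO value for 92.6% of the 122 genes above 3 counts in either DKO CD4+Foxp3- library of spleen and pLNs, where over all genes with reads it was the higher for 48.7%. In DKO Treg cells of the same tissue it was the higher for 84.2% of 120 genes, against 51.4% of all genes. Without DKO replicate 1, 7 genes were called in CD4+Foxp3- cells (5.51%, where 0.478% of all genes were called higher), with a median log2 fold change of 1.72 and 108 of the 127 positive. Without DKO replicate 2 there were 91 (71.7%), in a fit that called 9.62% of all genes higher. The calls were lost when either WT library or DKO Treg replicate 1 was left out, in fits that called hardly any gene of the table. With all libraries, filterByExpr, a robust prior and a fit of only the 2 groups gave 0 calls. These fits called 0.00857%, 0.110% and 0.00654% of all genes higher. Treg and CD4+Foxp3- cells of DKO mice came from the same littermates here, so the comparisons in these cell types are not independent of each other. The marker lists of other cells differed between the same libraries: in DKO CD4+Foxp3- cells of spleen and pLNs the 9 stroma genes measured summed to 8.08 to 21.0 CPM (0.482 to 0.608 CPM in WT), the 16 monocyte and macrophage genes to 254 to 577 CPM (120 to 151 CPM in WT) and the 4 plasma cell genes to 26.4 to 126 CPM (4.26 to 4.41 CPM in WT). The 7 mast cell and basophil genes summed to 6.00 to 63.8 CPM (2.73 to 4.63 CPM in WT), the 9 dendritic cell genes to 11.2 to 16.1 CPM (3.94 to 4.03 CPM in WT), the 10 neutrophil genes to 3.41 to 7.16 CPM (1.77 to 2.05 CPM in WT) and the 12 B cell genes to 25.9 to 51.5 CPM (14.1 to 17.1 CPM in WT). Among lymphocyte lists, the 7 Th17 genes summed to 25.9 to 159 CPM (14.6 to 22.4 CPM in WT), the 7 NK cell genes to 135 to 225 CPM (82.2 to 131 CPM in WT), the 9 cytotoxicity genes to 944 to 1485 CPM (783 to 925 CPM in WT) and the 9 Treg lineage genes to 785.5 to 1398 CPM (660 to 816 CPM in WT), the last with overlapping ranges. The epithelium, endothelium, erythroid and Th2 lists were also higher in DKO without overlap, and the Th1 and CD8 T cell lists were lower, so that of the 20 lists 14 were above, 2 below and 4 overlapping. The part of these lists in the results was not tested.

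Over the 3 comparisons that did not choose the genes, 63 of the 130 were called in at least 1 and 67 in none, and 8 were called in all 3: Spon1, Sdc2, Htr7, Scg2, Olfm1, P3h2, Vangl1 (a planar cell polarity gene) and Gm6455, whose reads could be shared with like copies. Of the 15 calls in CD4+Foxp3- cells of spleen and pLNs, 14 (93.3%) were also called in CD4+Foxp3- cells of mLN, where they were 27.5% of the 51. Among the 14221 genes listed under the same symbol in both tables, 4.38% were called higher in at least 1 comparison and 0.239% in all 3, against 48.7% and 5.98% of the 117 genes of the set listed so. Of the 119 such genes called higher in CD4+Foxp3- cells of spleen and pLNs, 91 (76.5%) were also called in mLN, so a high share is not particular to the set. Without DKO CD4+Foxp3- replicate 1 of spleen and pLNs, in an alternative added after the data were seen, 6 genes were called in all 3 comparisons, of which 4 (Spon1, Sdc2, Scg2 and Gm6455) were among the 8. Without DKO Treg replicate 1 of that tissue, the calls in both cell types there were lost, and with them the overlap of all 3. That fit called hardly any gene of the table. Without DKO CD4+Foxp3- replicate 2 of mLN, the 8 were still called in all 3. With a replicate block, 21 of the 26 calls in Treg cells of spleen and pLNs were kept. In CD4+Foxp3- cells 43 of the 51 in mLN and 10 of the 15 in spleen and pLNs were kept. Not all of the 8 were then called in all 3. In the 127 genes present in both tables, 55 had at most 3 counts in each of the 10 WT libraries of either cell type, and 15 had at least 10 counts in each of the 10 DKO libraries. The choice of genes fixed these conditions in the 6 mLN Treg libraries. Of the genes listed under the same symbol, 16.2% of all and 42.7% of the set met the first condition, and 66.9% of all and 12% of the set met the second. P3h2, Htr7, Galnt3 (an enzyme that starts O-glycosylation) and Col5a3 met both. P3h2, for example, was at 6.87, 3.88 and 4.03 CPM in DKO Treg cells of mLN, 5.78 and 1.77 CPM in those of spleen and pLNs, and at most 0.241 CPM in every WT library.

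Levels in DKO Treg and DKO CD4+Foxp3- cells were compared directly. In mLN, where the choice of genes favours Treg cells, the Treg values were all above the CD4+Foxp3- values for 73 of the 130 genes (56.2%, where 15.1% of all genes were so) and overlapped with them for 57, counts that the choice of genes bears on and from which nothing is read. In spleen and pLNs, which took no part in the choice, the mean was higher in DKO CD4+Foxp3- cells for 74 of 127 (58.3%, where 47% of all genes were so), with medians of 1.37 CPM in Treg and 1.79 CPM in CD4+Foxp3- cells. This direction rested on CD4+Foxp3- replicate 1: by library the medians were 1.66 and 1.02 CPM in Treg and 2.57 and 0.519 CPM in CD4+Foxp3- cells. Without that replicate, the fitted difference favoured Treg cells for 100 of the 127 genes, with a median of 1.59 on the log2 scale, against 52 genes and a median of -0.23 with it. The test called 3 genes higher in DKO Treg cells (2.36%, where 2.16% of all genes were called) and 6 higher in DKO CD4+Foxp3- cells (4.72%, where 1.61% of all genes were called). The first share is close to that of all genes. These DKO libraries are the same as in the comparisons with WT, and the cell types were compared without pairing the littermates.

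The genes higher in DKO Treg cells of spleen and pLNs were Madcam1, Ceacam1 and Thsd7a. Madcam1 was at 7.96 and 3.35 CPM in Treg and 0.188 and 0.0741 CPM in CD4+Foxp3- cells (log2 difference 5.31, SE 0.75, adjusted p = 0.00171), and also in mLN no CD4+Foxp3- library passed 0.141 CPM. Thsd7a was at 3.66 and 5.05 CPM against 0.188 and 0.963 CPM (2.93, SE 0.69, adjusted p = 0.0409). Ceacam1, an adhesion receptor that inhibits T cells, was at 3.61 and 2.05 CPM against 0.565 and 0.222 CPM (2.80, SE 0.65, adjusted p = 0.0332). In CD4+Foxp3- cells of mLN, Ceacam1 was at 0.511, 0.608 and 1.10 CPM in WT, against 0.355, 0.422 and 0.442 CPM in DKO, the only gene of the set with all DKO values below all WT values there, a difference that did not pass the test (adjusted p = 0.433).

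Higher in DKO CD4+Foxp3- cells were Adgrg5, Lpar3, Scg2, Mmp10, Kirrel3 and Ntng1. Lpar3 was at 0.859 and 0.341 CPM in DKO Treg and 69.7 and 5.71 CPM in DKO CD4+Foxp3- cells, a log2 difference of -5.92 for Treg against CD4+Foxp3- (SE 0.98, adjusted p = 0.00461). Scg2 was at 4.12 and 2.73 CPM against 72.3 and 9.86 CPM (-3.58, SE 0.69, adjusted p = 0.0117), and Ntng1 at 1.09 and 0.137 CPM against 39.2 and 1.85 CPM (-5.00, SE 1.18, adjusted p = 0.0410). Kirrel3, a cell adhesion gene of neurons, was at 0.973 and 0.546 CPM against 31.8 and 1.48 CPM (-4.43, SE 1.02, adjusted p = 0.0324), and Mmp10 had a log2 difference of -2.82 (SE 0.62, adjusted p = 0.0250). Replicate 1 of the CD4+Foxp3- cells was the higher in these 5 genes. Without it, Lpar3 and Scg2 were still called, and Mmp10 (log2 difference -1.91), Ntng1 (-1.54) and Kirrel3 (-0.94) were not, with adjusted p values of 0.0697, 0.360 and 0.459.

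Adgrg5, an adhesion G protein-coupled receptor gene, stood apart from the rest of the set. It was at 9.65 and 5.87 CPM in WT, against 4.39 and 10.4 CPM in DKO CD4+Foxp3- cells of spleen and pLNs, with overlapping values, and at or under 0.205 CPM in all Treg libraries of that tissue (log2 difference -5.78 for DKO Treg against DKO CD4+Foxp3-, SE 0.67, adjusted p = 0.00051). In mLN it was at 1.96, 2.36 and 1.995 CPM in WT CD4+Foxp3- and at 1.30, 1.01 and 1.76 CPM in DKO Treg cells. It was the gene whose call was kept in 11 of 11 alternative fits. The number of calls between the DKO cell types of spleen and pLNs rose to 23 higher and 3 lower in Treg without CD4+Foxp3- replicate 1 (18.1% and 2.36%, where 5.89% and 3.96% of all genes were called). It was 6 higher and 41 lower without replicate 2 (4.72% and 32.3%, where 4.21% and 3.85% of all genes were called), so the higher share was close to that of all genes. Without Treg replicate 1 it was 0 and 1, and without Treg replicate 2 it was 4 and 1, with 3.58% and 1.01% of all genes called in the latter. The interaction of genotype and cell type in this tissue, which tests whether the DKO effect differs between Treg and CD4+Foxp3- cells, was called for 0 of the 127 genes by edgeR (10 at an unadjusted p under 0.05, or 7.87%, where 5.53% of all genes were, with a lowest adjusted p of 0.438 in the set).

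**Figure D5:**
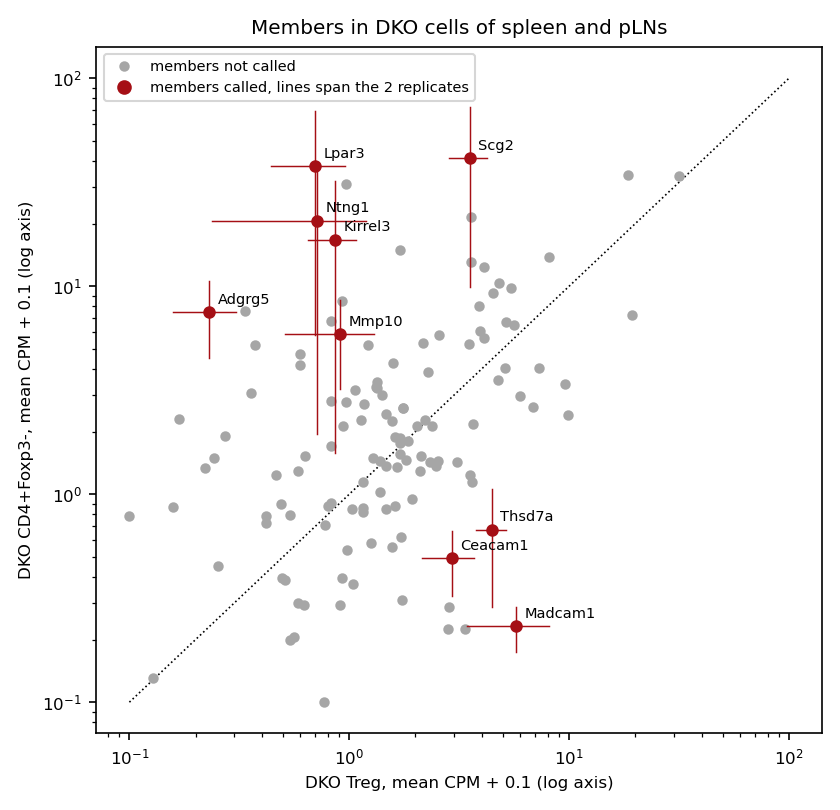
Mean level of each gene in DKO Treg cells (x axis) and DKO CD4+Foxp3- cells (y axis) of spleen and pLNs, as CPM + 0.1 on log axes, with a dotted line of equal levels. Red points are the 9 genes called between the cell types, and their lines span the 2 replicates. The vertical lines of Ntng1 and Kirrel3 are long because replicate 1 held 39.2 and 31.8 CPM and replicate 2 held 1.85 and 1.48 CPM.

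A few of the genes are also markers of cells other than T cells, and the marker lists of those cells are given beside them. Pdgfrb and Lum belong to the stroma list of 11 genes. Pdgfrb was at 4.28, 1.73 and 10.8 CPM and Lum at 0.764, 3.31 and 2.01 CPM in mLN DKO Treg cells. Without these 2 genes, the list summed to between 1.41 and 2.79 CPM in WT and between 1.26 and 25.4 CPM in DKO Treg cells of mLN, where Dcn alone held 24.1 CPM in DKO replicate 2 and 0 and 0.168 CPM in replicates 1 and 3. Ebf1, a B cell factor, was at 0.764, 2.80 and 3.27 CPM in mLN DKO Treg cells. The B cell list of 12 genes summed to between 31.9 and 40.4 CPM in WT and between 43.5 and 107 CPM in DKO, and none of its genes was at 0 in all 3 DKO libraries.

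Lists that hold none of the genes differed between WT and DKO Treg cells of mLN as well. Of all 20 lists, 8 were above WT without overlap in DKO, 4 were below and 8 overlapped. The 8 include the stroma list, which was above only with Pdgfrb and Lum, genes chosen in these libraries. Without them it summed to between 1.41 and 2.79 CPM in WT and between 1.26 and 25.4 CPM in DKO, which overlap. The B cell list stayed above without Ebf1 (31.9 to 40.4 CPM in WT, against 42.8 to 104 CPM in DKO). The 7 NK cell genes summed to between 13.6 and 15.1 CPM in WT and between 81.8 and 166 CPM in DKO, with Klrb1c, of the same receptor family as Klrb1a, at a mean of 112 CPM and Ncr1 at 0.409 CPM in DKO. The 17 monocyte and macrophage genes summed to between 247 and 290 CPM in WT and between 419 and 618 CPM in DKO. Not every gene of that list followed the sum. Lyz2 was at 2.22, 0.827 and 0.885 CPM in WT, against 0.305, 0.503 and 0.839 CPM in DKO. Csf1r did not pass 0.216 CPM in any of these libraries, so the sum rests on other genes of the list. The 7 dendritic cell genes summed to between 2.71 and 3.25 CPM in WT and between 4.195 and 10.3 CPM in DKO, and the 6 endothelium genes to between 0.329 and 0.496 CPM and between 1.43 and 2.95 CPM. Of the T cell lists, the 9 Tfh genes summed to between 562.5 and 635 CPM in WT and between 816.5 and 1200.0 CPM, and the 9 cytotoxicity genes to between 802 and 855.5 CPM and between 1137 and 1191 CPM. The 2 CD8 T cell genes were lower, between 16.0 and 20.8 CPM in WT and between 2.95 and 3.94 CPM in DKO, and so were the Th2 and neutrophil lists. Plasma cell genes, 5 in the table, overlapped, with between 2.95 and 5.59 CPM in WT and between 4.66 and 478 CPM in DKO. Ccl3 is the gene of the set on the Th1 list, whose other genes summed to between 93.9 and 98.3 CPM in WT and between 76.2 and 102 CPM in DKO. Of the 9 Treg lineage genes, none is in the set, and they summed to between 3507 and 3794 CPM in WT and between 2338 and 2544 CPM in DKO. The part of other cell types in the levels of the 130 genes was not tested.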

How the data were processed

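RNA of Treg and CD4+Foxp3- cells was sequenced from mLN and from pooled spleen and pLNs (20 libraries, stranded mRNA kit). The authors aligned reads to mm9 with TopHat2 2.1.1 (per the submitters' processing notes) and assigned them to RefSeq genes by featureCounts (Subread 1.4.3-p1). The deposited raw counts are whole numbers per gene, not normalized, and were used for selection and tests. The deposited TPM, which the authors computed in a way not given in the sources used here, were used for levels per length. Columns left without a sample numbered 0. Each table was fitted separately with edgeR 4.0.16 (R 4.3.3, limma 3.58.1): TMM, genes with at least 1 count in total, the 4 groups in a single quasi-likelihood fit and Benjamini-Hochberg adjustment over all genes tested. The workflow was tested on simulated data. DESeq2 1.42.0 served as an alternative. Coordinates are of NCBIM37 with GENCODE M1, and promoters are of RefSeq on GRCm38.p6. Genes named are the highest by mLN DKO Treg CPM, those with the lowest adjusted p in each comparison, members of the gene lists, neighbours and genes at the thresholds. The genes, the lists and the tests were chosen with earlier results of these data known. The interaction and the fits without a DKO library of the other cell type were added after the data were seen. Dpysl3, Pcbd1, Galnt3, the genes only listed by name and the marker genes outside the set were named after their values were seen.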

Additional observations from a re-analysis of the deposited data

How the results depend on the processing

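The number of the genes called depended on the fit. In Treg cells of spleen and pLNs 26 were called, where 1.14% of all genes were called higher. With filterByExpr, which kept 99 of the 127 genes, it was 0 (0.111% of all genes called higher). It was 7 with a robust prior (0.391% of all genes), 43 with DESeq2's Wald test (2.67%) and 69 with only the 2 groups compared (5.54%). In CD4+Foxp3- cells of mLN 51 were called, where 3.12% of all genes were called higher. It was 0 with only the 2 groups compared (0.00633% of all genes) and 28 with a robust prior (1.72%). In CD4+Foxp3- cells of spleen and pLNs 15 were called, where 0.770% of all genes were called higher. It was 0 with filterByExpr, with the 2 groups and with a robust prior (0.00857%, 0.00654% and 0.110% of all genes). With DESeq2 it was 39 (2.15%). Between the DKO cell types (9 called) it was 2 with filterByExpr, 3 with the 2 groups and 4 with a robust prior. As higher and lower in Treg cells these were 1 and 1, 1 and 2, and 2 and 2. Of all genes, 1.83% and 1.11%, 0.715% and 0.498%, and 1.63% and 0.948% were called. The shares of the set were 1.01% and 1.01%, 0.787% and 1.57%, and 1.57% and 1.57%, mostly near those of all genes. With 1 library left out, including DKO replicate 1 of the other cell type in spleen and pLNs, the 4 counts ranged from 0 to 76, 3 to 73, 0 to 91 and 1 to 47. Where that leaves 1 library in a group, it is assumed to vary like the other groups. In CD4+Foxp3- cells of mLN, 0.317% of all genes were called higher in the fit with 3 calls and 7.18% in that with 73. In the other comparisons, too, a larger share of all genes was called at the upper end of the range than at the lower. The ranges thus do not describe the set alone. The cause was not tested. Size factors of DESeq2 and no fold minimum left each of the 4 counts as it was, and no called gene changed its sign in any fit.

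A replicate block was also fitted, by replicate number over all 4 groups of a table. WT and DKO libraries thus share a block, and it is not a block by animal. With it the counts were 26, 44, 13 and 9, of which 21, 43, 10 and 8 genes were among the calls without it. Over all genes, 1.20%, 3.00% and 0.550% were called higher in the first 3 comparisons. Between the DKO cell types 2.02% were called higher and 1.35% lower. In mLN the deviations of same-numbered Treg and CD4+Foxp3- libraries correlated at 0.13 to 0.15 in WT and at 0.08, 0.35 and 0.36 in DKO, and DKO CD4+Foxp3- replicate 1 correlated best with Treg replicate 3 (0.16), so the numbers were not taken to pair the samples. In spleen and pLNs they correlated at 0.175 in WT and 0.327 in DKO, and crossed numbers at -0.175 and -0.327. Same-numbered WT and DKO libraries there correlated at 0.136 in Treg and 0.185 in CD4+Foxp3- cells. The main fits did not pair the cell types.

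The selection kept 27 genes with 0 counts allowed in WT, 61 with at least 20 asked in DKO and 91 on a CPM scale, and gave 141 to 176 genes with 1 mLN Treg library left out. Asking for at least 10 counts in each library in place of more than 3 moved the genes detected from 12 to 3 in WT and 54 to 23 in DKO CD4+Foxp3- cells of mLN, from 19 to 1 in WT Treg, and from 24 to 11 in WT and 85 to 48 in DKO CD4+Foxp3- cells of spleen and pLNs. The share of CpG-rich promoters was not computed, since too few of the genes have a promoter in the reference table. With 2 or 3 libraries per group and many levels near 3 counts, depth limits statements on the lowest genes.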
